A study of Mus musculus with 12 samples.

Results

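Peritoneal macrophages of mice that lack IRAK1 as well as IRAK2 (the double knockout) were set against wild-type macrophages after 2, 4 and 8 h of stimulation. The comparison takes 6 of the 12 arrays of the series, 3 of the double knockout and 3 of the wild type, paired by time, and covers all genes that the arrays measure. Cells of both genotypes had been recruited to the peritoneum with thioglycollate, which brings in inflammatory macrophages, and all 6 cultures received MALP-2 at 100 ng/ml. There was 1 array for each genotype and time. How many mice gave the cells of an array, their strain, sex and age, and how the IRAK1 and IRAK2 alleles were made are not given in the sources used here. The unstimulated double-knockout array was not used, since it correlated with the other arrays at 0.764 to 0.804, while the other 11 correlated with each other at 0.954 or more. Arrays of IRAK2 knockout macrophages, and the unstimulated arrays of IRAK2 knockout and wild type, serve below only to sort genes and to place levels.

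MALP-2 is a lipopeptide that TLR2 senses together with TLR6. These receptors recruit the adaptor MyD88 and the kinase IRAK4, which engage IRAK1 and IRAK2, and these in turn activate the ubiquitin ligase TRAF6. From there the signal reaches NF-kB, the family of transcription factors that bind kB sites in promoters, and the MAP kinases, which act on AP-1 factors and on the stability of cytokine messengers. In macrophages this pathway is known for the rapid production of cytokines, of chemokines that attract neutrophils and monocytes, and of inhibitors that limit the response. The comparison bears on how much of the transcript programme was present in stimulated cells without either kinase.

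The promoters of 6 induced genes are shown as examples of genes that were far below wild type and of genes that were not. Cxcl1, Cxcl2, Cxcl3 and Il6 were among the genes furthest below wild type, while Acod1 and Clec4e, also strongly induced by MALP-2, stayed near the wild-type level. Each sequence holds the 250 bases before the gene's start, 5′ to 3′ on the gene's strand, as RefSeq gives them for GRCm38.p6. Capitals mark matches to the kB motif on either strand, that is GGG, then any 3 bases, then TTCC. The windows are chr5:90890995-90891244, chr5:90903649-90903898, chr5:90785851-90786100 and chr5:30012864-30013113 on the plus strand, chr14:103046762-103047011 on the plus strand and chr6:123289872-123290121 on the minus strand.
Cxcl1: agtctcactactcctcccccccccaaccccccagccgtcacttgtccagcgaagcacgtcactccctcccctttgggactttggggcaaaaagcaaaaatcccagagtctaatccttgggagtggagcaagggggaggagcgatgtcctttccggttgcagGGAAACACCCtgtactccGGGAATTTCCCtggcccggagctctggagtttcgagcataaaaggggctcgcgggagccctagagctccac
Cxcl2: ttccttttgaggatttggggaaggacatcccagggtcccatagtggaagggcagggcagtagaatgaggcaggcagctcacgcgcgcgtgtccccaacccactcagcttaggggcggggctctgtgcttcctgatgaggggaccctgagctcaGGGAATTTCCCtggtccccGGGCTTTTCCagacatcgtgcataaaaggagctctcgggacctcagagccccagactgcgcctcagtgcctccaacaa
Cxcl3: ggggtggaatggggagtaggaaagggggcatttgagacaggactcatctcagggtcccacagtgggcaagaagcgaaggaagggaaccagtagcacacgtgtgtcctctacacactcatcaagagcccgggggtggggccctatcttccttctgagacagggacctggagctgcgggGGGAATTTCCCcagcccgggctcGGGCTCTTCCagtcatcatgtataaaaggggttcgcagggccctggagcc
Il6: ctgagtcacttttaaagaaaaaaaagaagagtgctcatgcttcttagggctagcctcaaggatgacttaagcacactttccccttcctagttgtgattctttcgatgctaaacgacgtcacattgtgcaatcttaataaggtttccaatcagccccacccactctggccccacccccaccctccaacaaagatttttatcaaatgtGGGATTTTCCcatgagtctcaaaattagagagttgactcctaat
Acod1: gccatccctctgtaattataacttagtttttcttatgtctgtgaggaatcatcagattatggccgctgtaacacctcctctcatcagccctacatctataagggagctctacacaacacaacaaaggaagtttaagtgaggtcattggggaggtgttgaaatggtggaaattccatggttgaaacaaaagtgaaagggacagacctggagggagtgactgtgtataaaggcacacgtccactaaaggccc
Clec4e: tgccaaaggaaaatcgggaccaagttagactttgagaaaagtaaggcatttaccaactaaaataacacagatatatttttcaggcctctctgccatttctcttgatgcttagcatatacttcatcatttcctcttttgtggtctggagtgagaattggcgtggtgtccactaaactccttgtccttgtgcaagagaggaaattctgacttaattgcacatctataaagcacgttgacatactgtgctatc
Cxcl1, Cxcl2 and Cxcl3 each had 3 matches covering 21 bases, some of them overlapping, since the run in their capitals reads as a match on both strands. Il6 had 1 match. Acod1 and Clec4e had 0 matches in these 250 bases, which says only that these letters are not in this window. These examples do not stand for their classes: among genes induced at least 4-fold in IRAK2 knockout cells, 12.7% of 142 windows of those lower in the double knockout held the motif, against 24% of 50 windows of those that did not pass.

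Values are log2 levels made with RMA, so 1 unit is a 2-fold difference, and each gene was read from 1 probeset. Differences are double knockout minus wild type at the same time, averaged over the 3 times and tested with limma over 10850 genes with time as a block. A gene was called at a Benjamini-Hochberg adjusted p under 0.05. Such a p asks whether a difference was steady over the 3 times, and the spread between mice does not enter it. A level near 3.83, the median of all values and taken here as the floor, cannot be told from no signal, so a difference that involves it is a lower limit.

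Signal toward the 5' end was weaker on the double-knockout arrays than on the wild-type arrays. The 5' minus 3' probesets of actin read -4.25, -4.68 and -3.87 in the double knockout, against -3.26, -3.24 and -3.58 in wild type at 2, 4 and 8 h, and those of Gapdh read -5.29, -5.90 and -4.36 against -3.84, -3.68 and -3.64. Where a gene had several probesets above the floor (4786 genes), the one with the highest level had a median difference of 0.12 and the one with the lowest level -0.13. Macrophage markers were high in both genotypes. Csf1r read 13.13, 13.17 and 13.31 in the double knockout and 12.82, 12.93 and 13.06 in wild type, and Cd68 11.60, 11.48 and 11.60 against 11.74, 11.70 and 11.59. Of 8 macrophage markers, Cd14, Itgam and Adgre1 were lower and Mertk higher in the double knockout, and the summed levels of the 8 were 76.3, 73.5 and 73.7 against 78.4, 76.9 and 78.2. Without the 4 h pair Itgam (-0.47), Adgre1 (-0.68) and Mertk (0.46) did not pass, nor did Itgam (-0.78) and Mertk (0.59) without the 2 h pair or Adgre1 (-0.49) without the 8 h pair. The Y-linked genes Eif2s3y and Kdm5d were well above the floor in both genotypes and differed by -0.11 and 0.15.

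The single Irak2 probeset read 5.19, 4.61 and 5.09 in the double knockout, against 6.69, 6.29 and 5.77 in wild type, a difference of -1.28 (SE 0.21, limma adjusted p 0.0049). It did not fall to the floor. The highest of 4 Irak1 probesets read 8.25, 8.31 and 8.11 in the double knockout, against 8.48, 8.46 and 8.48 in wild type, and its difference of -0.25 did not pass (limma adjusted p 0.22). The other 3 Irak1 probesets differed by -0.24, -1.22 and -0.66. The position of these probes relative to the deletions is not stated by the labels, so the levels neither check nor contradict the genotype labels.

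About 1 gene in 3 passed the test. In the double knockout 1460 genes were lower (13.5% of those tested) and 1975 were higher (18.2%), together 31.7%. Most of these differences were small: 502 genes were lower by at least 2-fold (4.63%) and 536 higher by at least 2-fold (4.94%). The large differences ran downward. At least 4-fold lower were 87 genes and at least 4-fold higher 58, at least 8-fold lower were 26 against 6 higher, and at least 16-fold lower were 10 against 2 higher. All 3 double-knockout arrays lay below all 3 wild-type arrays for 1882 genes (17.3%) and above them for 2514 (23.2%). Without the 4 h pair, whose double-knockout array had the weakest 5' signal, 611 genes were lower and 792 higher. The balance of small differences depended on the scaling. Lower genes made up 42.5% of the calls on the values as deposited, 54.8% after each array was centred on its median over the tested genes and 56.6% when a gene was read as the mean of its probesets. Weaker 5' signal moves with the genotype in these arrays, and its part in the small differences was not tested.

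**Figure D1:**
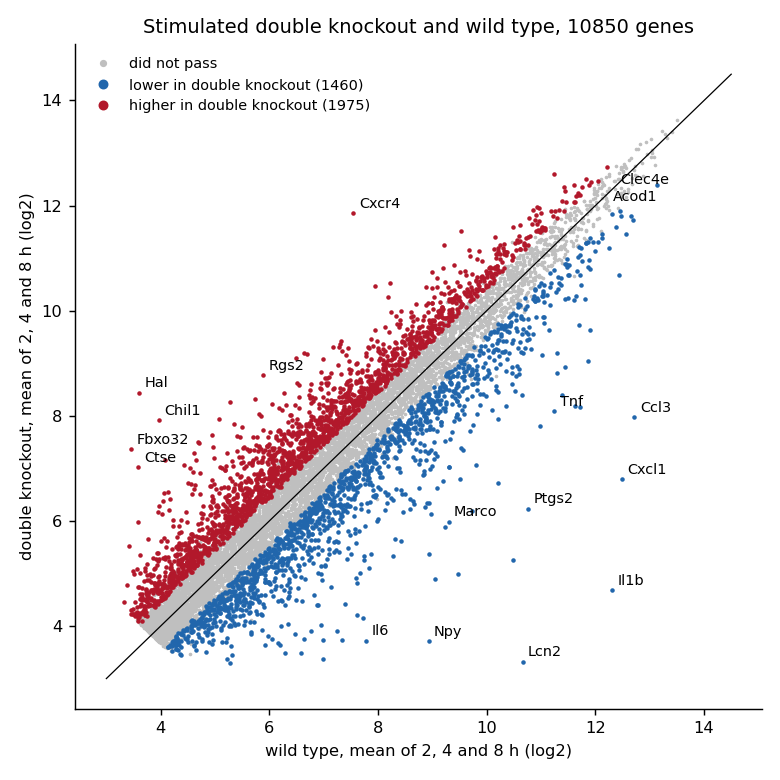
Mean log2 level of each of 10850 genes over 2, 4 and 8 h in the double knockout (vertical axis) and in wild type (horizontal axis), with the line of equal levels. The 1460 lower genes are blue, the 1975 higher genes red and the others grey, and the points furthest from the line lie below it, among them Il1b, Lcn2 and Cxcl1.

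Of the 20 genes furthest below wild type, 9 belong to the lists of cytokines and chemokines described below. Il1b, for interleukin 1 beta, read 6.16, 3.79 and 4.09 in the double knockout at 2, 4 and 8 h, against 12.33, 12.33 and 12.29 in wild type (-7.64, SE 0.41, limma adjusted p 0.00015). Double-knockout cells were thus above the floor at 2 h and near it afterwards, while wild-type cells did not move between the times. Lcn2, for a protein that withholds iron from bacteria, read 3.17, 3.36 and 3.42 in the double knockout, against 9.57, 10.91 and 11.51 in wild type. All 3 of its double-knockout values were under the floor, so its difference of -7.34 (SE 0.29, adjusted p 5e-05) is a lower limit. Ptgs2, for the inducible cyclooxygenase that starts prostaglandin synthesis, read 6.95, 6.04 and 5.72 in the double knockout, against 10.89, 10.77 and 10.63 in wild type (-4.53, SE 0.21, adjusted p 6.6e-05). Its other probeset above the floor differed by -2.56.

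Other genes in the lowest 20 were the Rab11 effector gene Rab11fip1 (-4.15), the guanylate-binding protein gene Gbp2b (-3.61), Plet1 (-3.57), the liprin gene Ppfia3 (-3.57) and the syndecan gene Sdc4 (-3.42, from 9.76, 7.37 and 7.45 in the double knockout and 12.51, 11.45 and 10.89 in wild type). A further 3 genes had a second probeset that hardly differed. Rps9, a ribosomal protein gene, differed by -3.48 on the probeset read here and by as little as -0.38 on another. B3galt6, for a galactosyltransferase of proteoglycan linkers, differed by -3.40 and as little as -0.17, and Atp5g2, for a subunit of mitochondrial ATP synthase, by -3.35 and as little as -0.21. For these 3 the size rests on 1 probeset.

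Npy was lower in the double knockout without being higher in stimulated than in unstimulated wild type. This gene, for neuropeptide Y, read 3.87, 3.51 and 3.75 in the double knockout, against 9.31, 8.90 and 8.58 in wild type (-5.22, SE 0.17, limma adjusted p 4.6e-05), and 9.91 in wild type at 0 h. IRAK2 knockout cells read 3.89, 3.68 and 3.72, so the gene was near the floor in both knockouts. B3galt6 had the same order, with 3.97, 4.46 and 4.22 in the double knockout, against 3.93, 4.97 and 4.48 in IRAK2 knockout cells and 6.54, 8.12 and 8.19 in wild-type cells.

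The genes furthest above wild type were of more varied function. Hal, for the enzyme that breaks down histidine, read 8.95, 7.78 and 8.58 in the double knockout, against 3.55, 3.47 and 3.79 in wild type (4.83, SE 0.21, limma adjusted p 6.1e-05). Chil1, for a chitinase-like protein, read 8.18, 7.89 and 7.70 against 3.87, 3.82 and 4.21 (3.95), and Ctse, for the protease cathepsin E, 7.65, 7.18 and 6.25 against 3.79, 3.64 and 3.34 (3.44). Wild-type cells were at or near the floor for these 3 genes, also at 0 h (3.78, 3.64 and 3.85), and so were stimulated IRAK2 knockout cells, whose 9 values lay between 3.25 and 4.04. On the 8 arrays of the other genotypes these transcripts were thus not seen at a level much above the floor, apart from Hal at 4.50 in unstimulated IRAK2 knockout cells.

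For Cxcr4, Fbxo32 and Rgs2 the double-knockout level was closer to unstimulated than to stimulated wild type on average. Cxcr4, for the receptor of the chemokine CXCL12, read 11.66, 12.17 and 11.73 in the double knockout, against 7.17, 7.65 and 7.83 in wild type, whose 0 h level was 11.74 (4.31, SE 0.17, limma adjusted p 5e-05). Fbxo32, for a ubiquitin ligase subunit that FOXO factors induce in muscle, read 7.01, 7.35 and 7.72 against 3.09, 3.49 and 3.81 (3.90, SE 0.14), with 8.14 in wild type at 0 h. Rgs2, whose product shortens G protein signals, read 7.97, 9.39 and 8.95 against 4.99, 6.08 and 6.59 (2.88, SE 0.20), and stayed below the 10.48 of wild type at 0 h at each time. Its 3 probesets differed by 0.69 to 2.88.

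The remaining higher genes in the top 20 included receptors and adhesion molecules. F2r, for the thrombin receptor PAR1, differed by 2.70, the integrin gene Itgb3 by 2.67 and the myeloid receptor gene Cd300lb by 2.54. Enzymes among them were Dio2, which activates thyroid hormone (3.08), the cyclic nucleotide phosphodiesterase gene Pde1c (2.81), the lysosomal acetyltransferase gene Hgsnat (2.50) and the phospholipase D-like gene Gdpd3 (2.49). Serpinb1a, an inhibitor of neutrophil proteases (2.63), the endoplasmic reticulum gene Wfs1 (2.56), Plekhg1 (2.86), the coactivator gene Eya4 (2.77) and the DNA helicase gene Zranb3 (2.62) complete the group, with 2 less certain members. Cep85, a centrosomal gene (2.98), and Ctr9, for a subunit of the transcription complex Paf1 (2.58), each had another probeset that ran the other way, at -0.38 and -0.18.

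**Figure D2:**
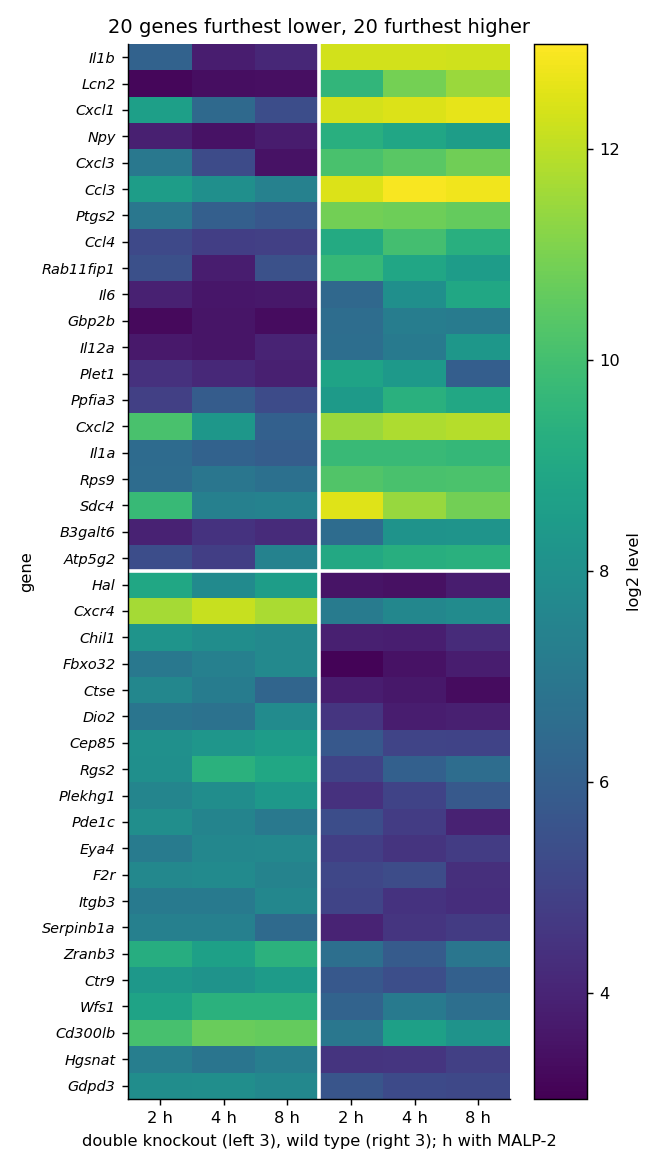
Log2 levels of the 20 genes furthest lower (upper rows) and the 20 furthest higher (lower rows) in the double knockout, in its 3 arrays (left columns) and the 3 wild-type arrays (right columns), at 2, 4 and 8 h in each. The arrays of the 2 genotypes do not overlap for any of the 40 genes, as the rule for naming them required.

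Cytokine genes were mostly lower. Of 20 tested members of a list of interleukins, TNF family members and growth factor cytokines, 15 were lower and 2 higher, against 13.5% and 18.2% of all genes. The list's median difference was -2.10, against 0.07 over all genes tested. Il6 read 3.93, 3.60 and 3.63 in the double knockout, against 6.36, 7.98 and 8.98 in wild type (-4.05, SE 0.47, limma adjusted p 0.0015). The double-knockout arrays stayed at the floor while the wild-type level was higher at each later time, so the gap was widest at 8 h and is a lower limit. Il1a, for the second ligand of the interleukin 1 receptor, read 6.50, 6.13 and 5.95 against 9.77, 9.77 and 9.67 (-3.55). The subunits of interleukin 12 differed alike in size but not in time, the gap of Il12a being widest at 8 h (-4.30) and that of Il12b at 2 h (-3.96). Il12a read 3.69, 3.55 and 3.98 against 6.63, 7.11 and 8.28 (-3.60), and Il12b 4.16, 3.59 and 3.47 against 8.12, 7.23 and 5.63 (-3.25). Double-knockout levels of both were near or under the floor, so the gaps are lower limits and their timing follows the wild-type levels.

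Tnf, for tumour necrosis factor, kept more of its wild-type level at 2 h than later. It read 9.53, 8.32 and 6.40 in the double knockout, against 10.99, 11.39 and 11.35 in wild type and 5.46 in wild type at 0 h (-3.16, SE 0.54, limma adjusted p 0.0058). The gap was -1.46 at 2 h and -4.95 at 8 h. Other lower members were Inhba, for an activin subunit (-2.74), the inflammasome substrate gene Il18 (-2.46), Tnfsf9 (-2.36), the STAT3-activating cytokine gene Lif (-2.30) and the growth factor gene Csf2 (-1.29). Il1rn, whose product blocks the interleukin 1 receptor, was lower by much less (-1.09) than the ligand genes Il1a and Il1b. The higher members were Il15, for a cytokine that sustains NK and memory T cells (1.49), and the vascular growth factor gene Vegfa (0.86, adjusted p 0.037), which did not pass after centring (0.77) or without the 4 h pair (0.95) or the 8 h pair (0.48). Csf1 (0.24) and Csf3 (-0.18) did not pass, and Il10, Il23a and Il33 averaged under the floor on these arrays.

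Chemokine genes had 15 lower (75%) and 0 higher of 20 tested, against 13.5% and 18.2% of all genes, with a median of -1.60. The ligands of CXCR2, which draw in neutrophils, were far down and diverged with time. Cxcl1 read 8.63, 6.42 and 5.35 in the double knockout, against 12.36, 12.46 and 12.63 in wild type (-5.68, SE 0.56, limma adjusted p 0.00084). Cxcl2 read 10.12, 8.28 and 6.08 against 11.50, 11.77 and 11.87 (-3.55, SE 0.68), and Cxcl3 6.99, 5.29 and 3.50 against 10.14, 10.46 and 10.83 (-5.22, SE 0.64). For these 3, the genes whose kB matches are shown above, the gap was smallest at 2 h (-3.73, -1.38 and -3.16) and widest at 8 h (-7.29, -5.79 and -7.33). Wild-type levels hardly moved between the times, while double-knockout levels were lower at each later time.

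Among CC chemokines, Ccl3 read 8.57, 7.96 and 7.38 in the double knockout, against 12.46, 12.89 and 12.80 in wild type (-4.75, SE 0.27, limma adjusted p 0.00015). With 7.98 in wild type at 0 h, its double-knockout level was near the unstimulated one. Ccl4 read 5.20, 4.84 and 4.91 against a lowest wild-type value of 9.10 (-4.49), and Ccl5 8.49, 8.70 and 8.20 against 10.22, 10.83 and 10.53 (-2.06). The double-knockout level of Ccl5 was still more than 4-fold above the 6.05 of unstimulated wild type. The monocyte attractants Ccl2 (-2.68), Ccl7 (-1.86) and Ccl8 (-1.89) were lower too. Ccl24 (-0.04), Pf4 (0.07), Cxcl11 (0.09), Cxcl14 (0.13) and Ppbp (-0.46) did not pass.

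Of 21 tested genes of NF-kB and its inhibitors, 11 were lower (52.4%) and 2 higher (9.52%), against 13.5% and 18.2% of all genes. The median was -0.69. Socs3, a brake on cytokine receptors, read 9.13, 7.74 and 6.55 in the double knockout, against 11.12, 10.97 and 10.84 in wild type (-3.17, SE 0.37, limma adjusted p 0.0016). Zc3h12a, for a nuclease that cuts cytokine messengers, differed by -2.81, the NF-kB subunit gene Nfkb2 by -2.59, Nfkbiz, for a nuclear protein that Il6 transcription needs, by -2.52, and the subunit gene Rel by -1.71. Tnfaip3, for the deubiquitinase A20, read 9.25, 8.73 and 8.34 against 10.12, 9.70 and 9.63 (-1.04), which left it above the 7.16 of unstimulated wild type. Nfkbia, for the classical inhibitor of NF-kB, read 12.50, 12.34 and 11.67 against 12.74, 12.51 and 12.48 and did not pass (-0.40, adjusted p 0.12), although 1 of its 5 probesets differed by -2.47. Bcl3 (0.03) and the kinase gene Ikbkb (0.10) did not pass either.

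Receptors and adaptors of the pathway itself differed by less. Of 22 tested members of the TLR and interleukin 1 receptor list, 8 were lower (36.4%) and 5 higher (22.7%). The shares of all genes were 13.5% and 18.2%, and the list's median was -0.37. Cd14, for a coreceptor that hands lipid ligands to TLRs, read 10.15, 9.24 and 8.10 in the double knockout, against 11.30, 11.06 and 10.70 in wild type (-1.85, SE 0.26, limma adjusted p 0.0028). Tlr7, a receptor for RNA, differed by -1.95, Tlr1 by -1.10 and Tlr2, the receptor for MALP-2, by -0.92, with 10.86, 10.46 and 9.73 against 11.40, 11.38 and 11.03. Irak3, for the family member that restrains the pathway, read 8.89, 8.71 and 8.77 against 10.20, 10.70 and 10.91 (-1.81, adjusted p 0.0011). The adaptor gene Myd88 was lower as well, with 7.87, 7.33 and 7.23 against 8.57, 8.53 and 8.32. Tlr4, the receptor for lipopolysaccharide, was higher (0.99) on the probeset read here. Tlr1 did not pass without the 4 h pair (-1.18, limma adjusted p 0.072) or the 8 h pair (-0.61). The inhibitor gene Tollip (-0.01) and the TAK1 partner gene Tab1 (0.02) did not pass.

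Of 27 tested immediate-early genes 12 were lower (44.4%, against 13.5% of all genes) and 5 higher (18.5%, near the 18.2% of all genes), with a median of -0.54. Nr4a3, for an orphan nuclear receptor, read 5.34, 3.99 and 3.86 in the double knockout, against 8.73, 6.58 and 5.35 in wild type (-2.49, SE 0.32, limma adjusted p 0.0021). Ier3 (-2.40), Myc (-1.47), Ier2 (-1.43) and the AP-1 gene Fosl2 (-1.29) were lower as well. Fos, for another AP-1 subunit, was higher, with 8.24, 9.03 and 8.61 against 6.22, 7.66 and 7.22 (1.59, SE 0.18, adjusted p 0.0013). Its double-knockout levels lay around the 8.41 of unstimulated wild type. Klf4, a factor of myeloid differentiation, was higher by 1.61 on the probeset read here and differed by -0.05 on another, and Jun (1.02) and Egr2, with 11.79, 11.81 and 11.70 against 11.10, 10.88 and 10.33, were higher too. Jund (-0.16) and Klf2 (-0.06) did not pass.

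Secondary-response genes in macrophages need new protein, such as the factors C/EBP beta and delta or the Nfkbiz product. The list of such genes and C/EBP-linked ones also held Cebpb and Cebpd themselves, and its members' need for new protein was not tested. It had 15 lower (71.4%) and 0 higher of 21 tested, against 13.5% and 18.2% of all genes, with a median of -1.42. The median gap was -0.93 at 2 h, -1.32 at 4 h and -2.0 at 8 h. Marco, for a scavenger receptor, read 5.87, 5.64 and 6.44 in the double knockout, against 7.61, 9.27 and 11.01 in wild type (-3.31, SE 0.45, limma adjusted p 0.0026). Fpr2, a formyl peptide receptor gene, kept a level above rest, with 9.13, 9.06 and 8.96 against a lowest wild-type value of 11.10 at 2 h and a highest of 12.51 at 8 h, and 6.60 in unstimulated wild type (-2.82). Hp, for haptoglobin, was present at later times in both genotypes, with 3.93, 5.86 and 7.21 against 6.80, 8.51 and 9.61 (-2.65, SE 0.15). Ptx3, for a soluble pattern receptor (-2.94), Cebpd (-2.12), Serpinb2 (-1.99) and Cebpb (-1.07) were lower. Stat3 (-0.08) and Acod1 (-0.24) did not pass.

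Of 14 tested genes of prostaglandin and leukotriene synthesis 3 were lower (21.4%) and 4 higher (28.6%), against 13.5% and 18.2% of all genes, and the median was -0.01. Below wild type were Ptgs2 and Ptges, the prostaglandin E synthase acting after it, which read 6.93, 7.85 and 8.25 in the double knockout, against 7.39, 8.76 and 10.01 in wild type (-1.04, limma adjusted p 0.016). Above it were the lipoxygenase gene Alox5 (0.78) and the prostaglandin receptor gene Ptger2 (0.69). Fits without 1 pair ended some of these calls. Ptges and Ptger2 did not pass without the 4 h pair (-1.11 and 0.73), and Alox5 did not pass without the 2 h pair (0.68) or the 8 h pair (0.64). Chemoattractant and lipid receptors had 4 lower (21.1%) and 7 higher (36.8%) of 19 tested. Besides Cxcr4, Lpar6 (1.88), the proton sensor gene Gpr65 (1.53) and the monocyte receptor gene Ccr2 (1.45) were higher, and Fpr2 and Gpr84, a receptor for medium-chain fatty acids (-2.17), were lower.

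Costimulatory and adhesion genes had 8 lower (27.6%) and 2 higher (6.90%) of 29 tested, against 13.5% and 18.2% of all genes. The list's median was -0.17. Icosl, for the ligand of a T cell costimulator, read 10.06, 8.27 and 6.84 in the double knockout, against 11.48, 11.30 and 11.37 in wild type (-2.99, SE 0.49, limma adjusted p 0.0047). Cd40 read 9.29, 8.47 and 6.36 against 10.54, 9.99 and 8.95, and Itgax, for the integrin CD11c, was higher with 11.85, 11.87 and 12.20 against 10.82, 11.03 and 10.91 (1.05). In the list of alternative activation 5 were lower (29.4%) and 4 higher (23.5%) of 17 tested. The mannose receptor gene Mrc1 read 9.26, 9.08 and 9.13 against 7.99, 7.36 and 6.87 (1.75), while the transglutaminase gene F13a1 (-2.27) and the chemokine gene Ccl22 (-1.86) were lower, so the list had no single direction. Among C-type lectins and scavenger receptors 3 were lower (18.8%) and 4 higher (25%) of 16. Clec4d, a lectin receptor gene, read 12.78, 12.72 and 12.75 against 12.74, 12.73 and 12.74.

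FOXO targets and growth arrest genes leaned upward, with 14 higher (56%) and 4 lower (16%) of 25 tested and a median of 0.69. Of all genes 18.2% were higher and 13.5% lower. Trp53inp1, a p53-induced autophagy gene, read 8.46, 9.55 and 9.50 in the double knockout, against 6.38, 6.87 and 6.83 in wild type and 9.95 in unstimulated wild type (2.48, SE 0.17, limma adjusted p 0.00025). The cyclin kinase inhibitor gene Cdkn1b (1.68), the sestrin gene Sesn1 (1.67) and Ccng2 (1.54) were higher too. Insr, the insulin receptor gene, was higher by 1.90 on the probeset read here, while another differed by -0.36. The 4 lower members were Gadd45a (-1.82), Cdkn1a (-1.22), Btg2 (-1.12) and Sod2 (-1.10).

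Cell cycle genes had 12 higher (50%) and 2 lower (8.33%) of 24 tested, against 18.2% and 13.5% of all genes, with a median of 0.51. Ccnd1, for cyclin D1, read 7.74, 7.37 and 7.68 in the double knockout, against 6.02, 5.52 and 5.77 in wild type (1.82, SE 0.14, limma adjusted p 0.00033). Ccnd2, for the related cyclin D2, went the other way, with 4.10, 4.26 and 4.85 against 7.24, 7.48 and 5.98 (-2.49), although another of its 5 probesets differed by -0.04. Rrm2, for a subunit of ribonucleotide reductase (1.42), and the replication helicase gene Mcm4 (1.16) were higher, while the proliferation marker gene Mki67 was lower (-0.81). Among the 10 that did not pass were Mcm3 (0.04), Mcm6 (-0.12), Pcna (-0.12) and Kif11 (-0.07). RGS and G protein signalling genes had 9 higher (36%) and 2 lower (8%) of 25 tested, against 18.2% and 13.5% of all genes. After Rgs2 and Pde1c, Rgs1 was higher by 1.63, and Pde4b, whose phosphodiesterase limits cAMP, was lower, with 10.28, 9.25 and 8.34 against 11.06, 10.62 and 10.44 (-1.42).

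Interferon-stimulated genes had 6 higher (26.1%) and 2 lower (8.70%) of 23 tested, against 18.2% and 13.5% of all genes. Their median of 0.35 was 0.30 at 2 h, 0.61 at 4 h and -0.10 at 8 h. Rsad2, for the antiviral protein viperin, read 8.18, 9.57 and 9.29 in the double knockout, against 6.26, 8.11 and 8.48 in wild type (1.39, SE 0.22, limma adjusted p 0.0039). Oasl2 was higher by 1.17, and Xaf1 by 1.09 on 1 probeset and -1.42 on another. Mx1, for an antiviral GTPase, was lower, with 5.20, 5.88 and 5.70 against 7.57, 7.25 and 6.96 (-1.66). The guanylate-binding protein gene Gbp2b, which interferon also induces, stood far below wild type, as given above.

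Metabolic and organelle lists had smaller medians. Iron genes had 5 lower (35.7%) and 2 higher (14.3%) of 14 tested. The iron exporter gene Slc40a1 read 5.25, 6.72 and 6.67 in the double knockout, against 4.37, 3.89 and 4.21 in wild type (2.05, SE 0.34, limma adjusted p 0.005). Blvrb, a biliverdin reductase gene, was lower (-1.73). Lysosomal genes had 7 higher (22.6%) and 2 lower (6.45%) of 31, against 18.2% and 13.5% of all genes. Ctse was among the higher ones, and so was Ctsk, for the collagen-cutting cathepsin K (0.98). Lipid genes under LXR and PPAR had 3 higher (13.6%) and 2 lower (9.09%) of 22, both under the shares of all genes. Cpt1a, for the entry step of fatty acid oxidation, was higher (1.74), while Apoe (-1.46) and the LXR gene Nr1h3 (-1.40) were lower. Cholesterol synthesis genes had 4 lower (21.1%) and 1 higher (5.26%) of 19, with Pmvk at -1.18. Apoptosis regulators had 3 lower (16.7%) and 2 higher (11.1%) of 18, near or under the shares of all genes. Bcl2 differed by 1.60 on 1 probeset and -0.77 on another, and Gadd45b by -1.29.

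Oxidative stress genes were split. Of 20 tested, 8 were lower (40%) and 7 higher (35%), against 13.5% and 18.2% of all genes. Their median of 0.04 was -0.05 after centring. The lower ones held the NADPH oxidase genes Cyba (-1.03), Ncf4 (-0.91) and Ncf1 (-0.74), the cystine transporter gene Slc7a11 (-1.54) and both superoxide dismutase genes Sod1 and Sod2. The higher ones held Nfe2l2, for the regulator NRF2 (0.88), and the glutathione synthesis gene Gclm (1.02). Hmox1 (0.09) and Txnrd1 (0.32) were among the 5 that did not pass. The size for Sod1 (-2.27) rests on 1 of 3 probesets, another of which differed by 0.72. Glycolysis and hypoxia genes had 2 lower (8.33%) and 5 higher (20.8%) of 24. Adm, for the vasodilator adrenomedullin, was lower (-2.14) and the hexokinase gene Hk3 higher (1.23). Unfolded protein response genes had 3 lower and 3 higher of 24 (12.5% each), both under the shares of all genes. The medians of these 2 lists, like those of oxidative stress and of C-type lectins, were within 0.06 of 0 and changed sign after centring.

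Many ribosomal protein, proteasome and respiratory chain genes were lower. Ribosomal proteins had 14 lower (73.7%) and 0 higher of 19 tested, with a median of -0.74. Proteasome subunits had 13 (52%) and 0 of 25 (-0.49), and respiratory chain subunits 10 (37%) and 1 (3.7%) of 27 (-0.28). Among all genes 13.5% were lower and 18.2% higher. The other 5, 12 and 16 of these lists did not pass. Rps6 read 5.53, 5.79 and 5.06 in the double knockout, against 6.67, 7.34 and 7.28 in wild type (-1.63, SE 0.21, limma adjusted p 0.0022), and Rpl8 8.32, 8.34 and 8.47 against 9.60, 9.76 and 9.83 (-1.35). Psmb5, for a catalytic subunit of the proteasome, read 6.18, 6.37 and 7.71 against 8.73, 9.25 and 9.61 (-2.44), and Ndufa4 5.27, 5.93 and 5.82 against 7.05, 7.11 and 7.13 (-1.42). Unstimulated wild type had 9.75 for Rpl8, 8.76 for Psmb5 and 7.28 for Ndufa4, so these gaps were there relative to rest as well. At 2, 4 and 8 h the median gap was -0.67, -0.68 and -0.90 for ribosomal proteins and -0.33, -0.48 and -0.83 for the proteasome. For the respiratory chain it was -0.13, -0.30 and -0.52. The 5' signal of the double-knockout arrays, given above, was weakest at 4 h and least weak at 8 h. It was weaker than in wild type at each time, and its part in these lists was not tested. Rps20 (-0.15), Rps4x (0.04), Psmc2 (0.02) and Sdhd (0.04) did not pass.

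**Figure D3:**
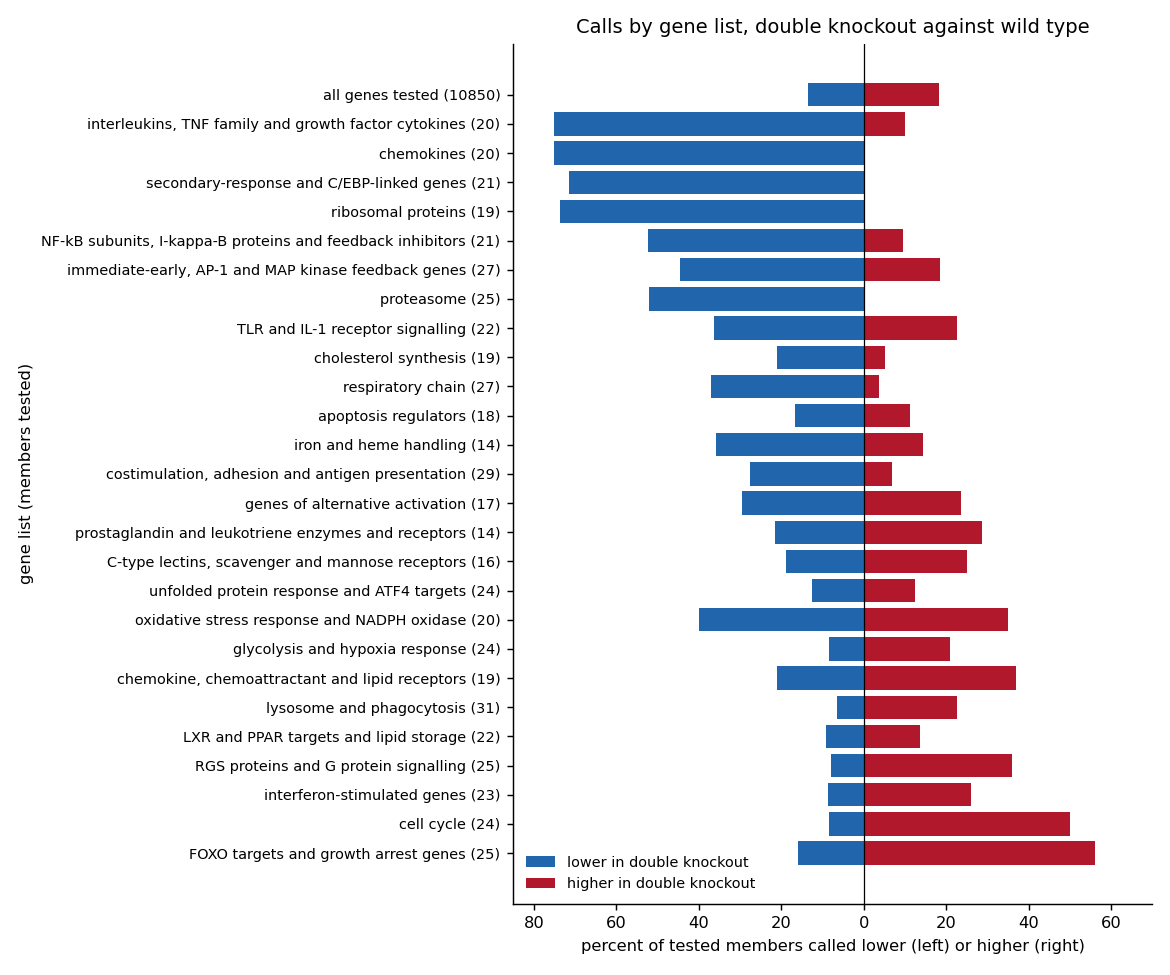
Share of the tested members of each of 26 gene lists that were lower (left of 0) or higher (right of 0) in the double knockout than in wild type, in percent, with the number tested in parentheses and all genes in the top row. Cytokines, chemokines, secondary-response genes and ribosomal proteins have the largest shares lower, and FOXO targets and cell cycle genes have the largest shares higher.

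Other cell types left limited traces. Of the neutrophil markers 4 of 9 on the array were tested. S100a8 read 9.41, 9.30 and 9.09 in the double knockout, against 10.67, 10.77 and 11.03 in wild type (-1.55, limma adjusted p 0.0013), and Camp differed by -1.18, while S100a9 (-0.11) and Mmp8 (-0.12) did not pass. The summed levels of the 9 on the array were 38.9 to 40.1 in the double knockout and 41.6 to 43.7 in wild type. The eosinophil gene Siglecf read 7.81, 7.67 and 7.36 against 6.78, 6.73 and 5.76 (1.19), the mast cell gene Cpa3 4.90, 5.85 and 5.09 against 4.29, 4.02 and 3.92 (1.20), and the other 6 of 8 such markers averaged under the floor. The dendritic cell marker Zbtb46 was higher by 0.79 on 1 probeset and 0.06 on another. Cd79a, of B cells (-0.59), and Dcn, of stromal cells (-0.63), were lower, while Ms4a1 (-0.60) and Ighm (0.32) of the B cell markers and Pdgfra (-0.31), Col1a1 (0.15), Col3a1 (0.28) and Col1a2 (0.03) of the stromal ones did not pass. Without the 4 h pair the calls of Zbtb46 (0.64), Cd79a (-0.64) and Dcn (-0.66) were lost, as were those of Cd79a without the 2 h pair (-0.50) and Dcn without the 8 h pair (-0.41). T and NK cell markers were near the floor, and 0 of the erythroid markers was tested. Fewer cells of a type and less RNA per cell cannot be told apart in such bulk samples, and the part of other cells in the results above was not tested.

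Time mattered for which genes were far apart. At 2 h 526 genes were at least 2-fold lower (4.85%) and 548 at least 2-fold higher (5.05%). At 4 h there were 725 (6.68%) and 781 (7.2%), and at 8 h 564 (5.2%) and 672 (6.19%). With 1 array a side these are sizes with no test, and the 4 h double-knockout array had the weakest 5' signal. Among the 502 genes lower by at least 2-fold on average, the gap was widest at 2 h for 99, at 4 h for 227 and at 8 h for 176, and 239 were at least 2-fold lower at each time. Among the 536 higher genes the numbers were 123, 222, 191 and 230. A total of 4 tested genes were at least 2-fold lower at 1 time and at least 2-fold higher at another, Gm9222, Mup10, Ndrg1 and Nfatc2, named after their values were seen. Ndrg1 read 7.52, 7.24 and 7.36 in the double knockout, against 8.66, 6.84 and 5.92 in wild type, and Nfatc2 5.14, 5.45 and 6.05 against 6.64, 5.48 and 4.77.

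Levels were also set against unstimulated wild type. Of the 502 lower genes, 273 (54.4%) had a double-knockout mean within 2-fold of the wild-type 0 h level, 53 lay above and 176 below, while the stimulated wild-type mean lay within 2-fold for 260, above for 239 and below for 3. The share within 2-fold of rest was nearly the same in both genotypes. Of the 536 higher genes, 397 (74.1%) had a double-knockout mean within 2-fold of that level, 119 lay above and 20 below. Their stimulated wild-type means lay within 2-fold for 296, above for 1 and below for 239. Both sets were chosen by the difference between the genotypes. Which genotype more often lay above or below rest therefore follows from the choice and is no separate result. The wild-type 0 h array is 1 library, and these are counts with no test.

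A class of MALP-2 response genes was taken from arrays outside the comparison, as the genes at least 4-fold above 0 h at 2 h in IRAK2 knockout cells. Of 187 such genes tested, 143 (76.5%) were lower in the double knockout and 0 were higher, against 13.5% and 18.2% of all genes, and 116 were lower by at least 2-fold. The median gap was -1.06 at 2 h, -1.35 at 4 h and -1.47 at 8 h. With no usable unstimulated double-knockout array, levels were set against unstimulated wild type, which does not measure induction in the double knockout. More genes of the class stood above that level at 2 h than later. At 2 h 138 of the 187 were at least 2-fold above unstimulated wild type in double-knockout cells, against 186 in wild-type cells. At 4 h there were 98 against 178, and at 8 h 64 against 166. Over all 10850 genes, 511, 523 and 398 were at least 2-fold above it in the double knockout at 2, 4 and 8 h. So most of the 187 stood above unstimulated wild type at 2 h in cells that lack both kinases.

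The opposite class, of genes at least 4-fold below 0 h at 2 h in IRAK2 knockout cells, held 57 tested genes. Of these 47 (82.5%) were higher in the double knockout, against 18.2% of all genes, 1 was lower and 9 did not pass. The median gaps were 1.33, 1.30 and 1.34 at 2, 4 and 8 h. At 2 h 44 of the 57 were at least 2-fold below unstimulated wild type in double-knockout cells, against 57 in wild-type cells. At 4 h there were 22 against 53, and at 8 h 9 against 46. Fewer genes of this class were thus below unstimulated wild type at later times. Over all 10850 genes, 739, 698 and 357 were at least 2-fold below it in the double knockout, so the number fell by 8 h there too. With no usable unstimulated double-knockout array, such counts do not measure repression in the double knockout. Both classes share no array with the comparison, but they are bulk measures from the same experiment.

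**Figure D4:**
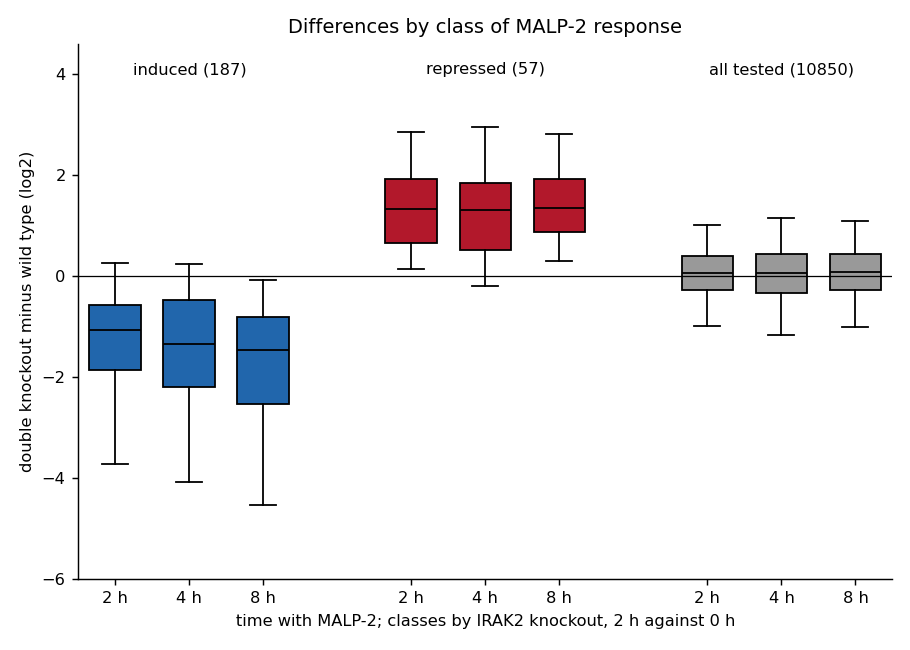
Double knockout minus wild type in log2 units at 2, 4 and 8 h, for the 187 genes induced and the 57 repressed at least 4-fold in IRAK2 knockout cells at 2 h, and for all 10850 genes. Boxes span the quartiles with the median as a line, and whiskers the 5th to 95th percentiles. The induced class lies mostly below 0 with medians of -1.06, -1.35 and -1.47, and the repressed class mostly above it with 1.33, 1.30 and 1.34.

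Some induced genes kept the wild-type level. Of the 187, 44 did not pass, and 13 were within 1.5-fold of wild type at each of the 3 times. Acod1, for the enzyme that makes itaconate, read 12.21, 12.02 and 11.73 in the double knockout, against 12.17, 12.25 and 12.26 in wild type and 7.35 in unstimulated wild type (-0.24, SE 0.16, limma adjusted p 0.29). Clec4e, for the glycolipid receptor Mincle, read 12.21, 12.54 and 12.17 against 12.07, 12.32 and 12.69, with 7.68 at rest (-0.05, SE 0.18, adjusted p 0.85). At 8 h both were somewhat below wild type, by -0.53 and -0.52. A p that misses the threshold does not show that the levels were equal.

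Like Acod1 and Clec4e, further induced genes were named because they lay within 1.5-fold of wild type at each time. Their small differences follow from that choice. Slc2a6, a hexose transporter gene, read 8.14, 7.64 and 7.27 in the double knockout, against 8.27, 7.74 and 7.07 in wild type, with 4.75 at rest (-0.01, SE 0.15, limma adjusted p 0.95). Olr1, for a scavenger receptor of oxidized lipoprotein, read 11.39, 10.86 and 9.94 against 11.54, 11.10 and 10.03, with 7.15 at rest. Filip1l read 8.20, 7.82 and 7.66 against 8.07, 7.93 and 7.96. The others of the 10 with the strongest induction were Abtb2 (-0.18), the class I gene H2-Q5 (-0.08), the zinc finger gene Hivep3 (-0.28), Foxp4 (-0.17) and the NF-kB subunit gene Relb (-0.36). Nfkbie, for an inhibitor of NF-kB, was close at 2 and 4 h and lower at 8 h, with 10.58, 9.74 and 8.58 against 10.72, 9.60 and 9.59. Relb passed as lower in the fit over 9 arrays of 3 genotypes (-0.36, limma adjusted p 0.041), but not on the 6 arrays (adjusted p 0.10).

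**Figure D5:**
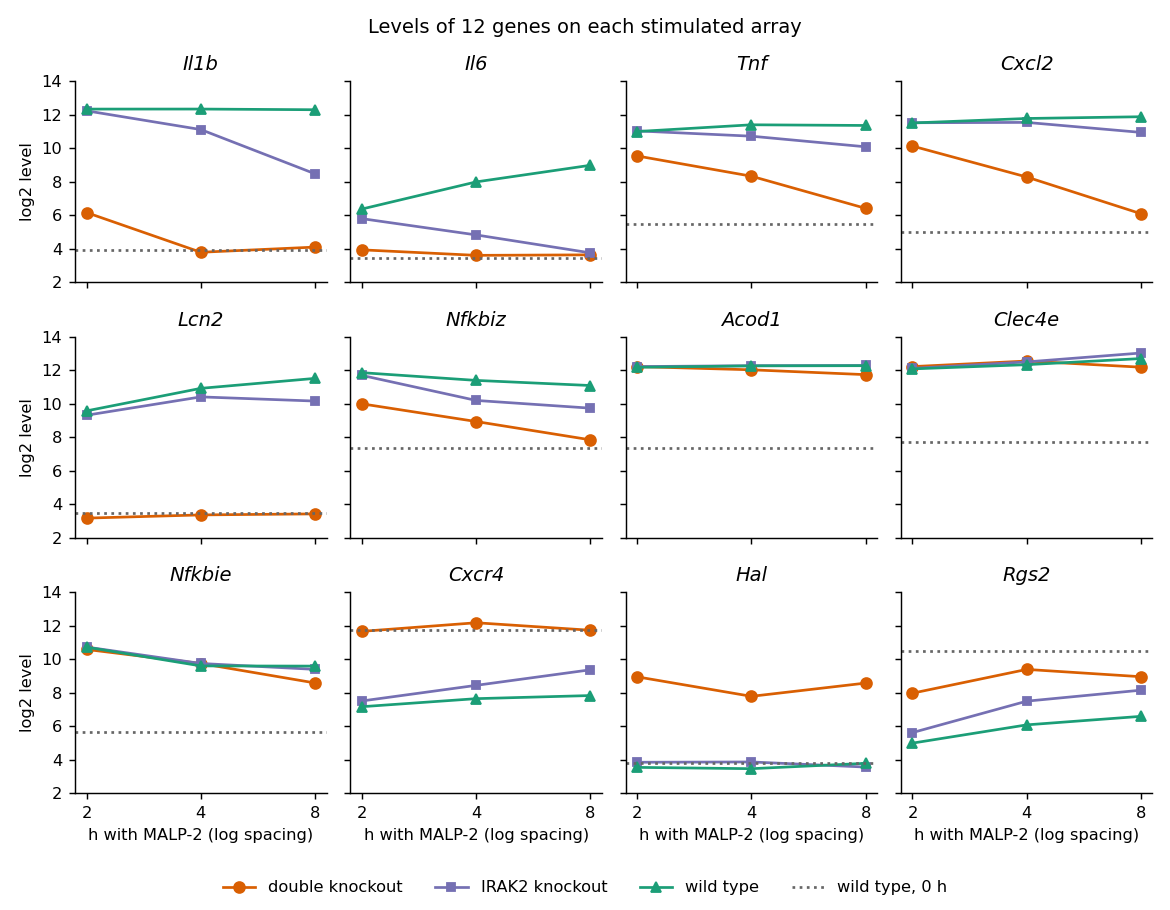
Log2 levels of 12 genes on each stimulated array against hours with MALP-2 on a log-spaced axis, for the double knockout (circles), the IRAK2 knockout (squares) and wild type (triangles), with unstimulated wild type as a dotted line. In the double knockout Tnf and Cxcl2 come closer to the dotted line at each later time, Il6 stays near it, Acod1 and Clec4e keep near the wild-type curves, Nfkbie does so at 2 and 4 h and is lower at 8 h, and Cxcr4 stays at the dotted line.

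Set against the IRAK2 knockout, which lacks only that kinase, the double knockout was lower for 1520 of 10931 genes tested (13.9%) and higher for 1966 (18%). This comparison shares the double-knockout arrays with the one above. Il1b read 12.22, 11.11 and 8.46 in the IRAK2 knockout, so the double knockout was lower by a further -5.92 (limma adjusted p 0.00048), and at 2 h the IRAK2 knockout was close to wild type. Lcn2 differed from the IRAK2 knockout by -6.64, Cxcl3 by -4.73, Ccl3 by -4.14, Cxcl1 by -3.77 and Tnf by -2.52 (adjusted p 0.0028). Il6 was different: it read 5.79, 4.82 and 3.75 in the IRAK2 knockout, and the double knockout differed from it by -1.07 (adjusted p 0.031) but from wild type by -4.05. Ptx3 was alike, with -0.89 against the IRAK2 knockout and -2.94 against wild type. For Npy and B3galt6 the 2 knockouts were near each other (-0.06 and -0.24).

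Gbp2b was the reverse case among the lowest 20 genes, since it read 7.57, 7.84 and 7.67 in the IRAK2 knockout, above wild type, and the double knockout differed from it by -4.32 (limma adjusted p 1.4e-05). Of the higher genes, Hal, Chil1 and Ctse differed from the IRAK2 knockout by 4.67, 4.16 and 3.67, about as much as from wild type. Cxcr4 differed by 3.42 and Rgs2 by 1.68, less than from wild type, as the IRAK2 knockout levels of both lay between the other genotypes at each time. Ctr9 read 7.91, 7.65 and 7.56 in the IRAK2 knockout, so most of its difference from wild type was shared by both knockouts (0.61 against the IRAK2 knockout).

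Genes next to the targeted loci were counted, since DNA next to a targeted allele is bred along with it. Of the 40 tested genes nearest to Irak1 on the X chromosome, 5 were lower and 5 higher (25% in all, against 31.7% of all genes), and only Pls3, for an actin-bundling protein, was at least 2-fold apart, with 8.92, 9.27 and 9.06 in the double knockout, against 7.01, 7.05 and 6.92 in wild type. Of the 40 nearest to Irak2 on chromosome 6, 1 was lower and 9 were higher (25%), and 3 by at least 2-fold: the repressor gene Bhlhe40 (1.33), the cilia gene Ift122 (1.12) and the DNA repair gene Mbd4 (1.08). Ift122 did not pass without the 4 h pair (0.89) or the 8 h pair (0.95). Near Irak2 the higher genes were 22.5% of the 40, against 18.2% of all genes, and those at least 2-fold higher 7.5%, against 4.94%. Near Irak1 the lower and the higher genes were 12.5% each.

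The kB motif was counted in the RefSeq windows of 250 bases before to 50 after each start, both strands. It was in 6.05% of the 11341 windows of 8848 tested genes. It was in 13.8% of 80 windows of genes lower by at least 4-fold and in 7.02% of 57 windows of genes higher by at least 4-fold. Among genes of the induced class, it was in 12.7% of 142 windows of those that were lower and in 24% of 50 windows of those that did not pass. A C/EBP motif, TTGCNNAA, was in 18.8% of the windows of genes lower by at least 4-fold, against 8.56% of all. An AP-1 motif, TGANTCA, was in 11.2% and 10.5% of the windows of genes lower and higher by at least 4-fold, against 5.22% of all, and the FOXO motif GTAAACA in 0 and 3 of those windows (0% and 5.26%), against 2.49% of all. A gene can have several windows, and a match is a description of letters, not of binding.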

How the data were processed

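Levels were measured on 12 Affymetrix mouse expression arrays with 45101 probesets, 1 array for each of 3 genotypes at 0, 2, 4 and 8 h. The deposited table holds log2 values made by the authors with RMA, per the submitters' processing notes, which give no version. RMA makes the distributions of probe signals equal between arrays before they are summarized, so a shift of the whole transcriptome would not be seen. The medians of the summarized values still differed a little. They were 3.85, 3.84 and 3.86 in the double knockout and 3.81, 3.84 and 3.82 in wild type at 2, 4 and 8 h. No scanner images or present calls were used, and the number of arrays limits the precision.

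A single gene symbol was given for 34945 probesets, several for 932 and none for 9160, and 64 were controls. Symbols of 34741 were updated through gene IDs in the RefSeq table. Each of 18193 genes was read from the probeset with the highest mean over the 11 arrays other than the unstimulated double knockout. The fit took 10850 genes whose mean over the 6 arrays reached 3.83, the median of all values of those 11.

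Differences were fitted with limma 3.58.1 in R 4.3.3 (lmFit, eBayes) with genotype and time, leaving 2 residual degrees of freedom and a fitted prior of 5.35 with an SD of 0.195 log2. Benjamini-Hochberg adjustment ran over all genes tested, with a threshold of 0.05. Nothing in the labels says that the arrays of a genotype come from separate animals. In data simulated from the 6 arrays, a shift of 1 log2 was found in 78 of 100 genes and a shift of 2 in 98 of 100, with 18 false calls among 10731. The shifted genes lay at least 1 log2 above the floor, and the noise was independent between arrays. The simulation held no difference in 5' signal or scaling between genotypes, so its counts do not cover calls that come from such differences. Tables and plots used Python 3.11.15 with pandas 2.3.3 and matplotlib 3.10.9.

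The comparison, the 35 gene lists (748 entries) and the classes were chosen with earlier results of these data known. Named are Irak1 and Irak2, the 20 genes furthest in each direction among called genes with arrays that do not overlap, up to 4 called and 2 least different members of each list, the 10 most induced genes that stayed within 1.5-fold, and Acod1, Clec4e, Nfkbie and Npy. Further list members, neighbours and genes of small counts were named after their values were seen. List members that were not on the array were not analysed here. Promoter sequences come from RefSeq (GRCm38.p6).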

Additional observations from a re-analysis of the deposited data

Results flagged for a closer look

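Pla2g4a, for the phospholipase that releases arachidonic acid, moved both ways over time. It read 6.72, 7.35 and 6.60 in the double knockout, against 6.04, 7.17 and 7.49 in wild type at 2, 4 and 8 h. The double knockout was thus above wild type by 0.68 at 2 h and below it by -0.89 at 8 h. Each value is 1 array against 1, and this difference between times was not tested.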

How the results depend on the processing

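The counts of 1460 lower and 1975 higher genes stayed within 1.5 times under 9 arrays of 3 genotypes (1875 and 2589), centring (1851 and 1525), no floor (1448 and 1972), a floor of 5 (1297 and 1775), other probeset choices and a robust variance, except where given here. Without the time term, which pairs the arrays and takes the place of a replicate block, 984 genes were lower and 1182 higher. No paired analysis by replicate number was possible because the labels give none. With the mean of all probesets 1556 were lower and 1192 higher, and the cause was not tested. Leaving out 1 pair of arrays gave 611 to 1370 lower and 792 to 1698 higher genes, and each such fit had 1 residual degree of freedom. The lowest counts came without the 4 h pair, whose double-knockout array had the weakest 5' signal, and the reason was not tested. In every fit without 1 pair 593 genes stayed lower and 741 higher. Of the genes named, 22 lost their call without the 4 h pair, among them Tlr1, Ptges, Vegfa and Adgre1, and 22 without the time term, among them Tlr7, Nr4a3, Rsad2, Cd40 and Bcl2. The direction turned for Xaf1 (-0.16) and Fth1 (-0.66) with the mean of all probesets, and for Ctr9 (-0.18) when probesets open to cross-hybridization were left out, under which Rps9 no longer passed (-0.38). Levels near the floor limit the sizes of Il1b, Lcn2, Il6, Il12a, Il12b and Npy in the double knockout, and that of Cxcl3 at 8 h.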
